A study of Homo sapiens with 6 samples.

Results

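The replication-dependent histone genes encode the bulk of the linker histone H1 and of the core histones H2A, H2B, H3 and H4. They were chosen here by symbol, as all rows named HIST1 to HIST4 followed by H1, H2A, H2B, H3 or H4, with names ending in PS left out. This gave 72 of the 26810 gene rows, made up of 6 H1, 17 H2A, 20 H2B, 14 H3 and 15 H4 genes. The rule also takes in testis histones, such as HIST1H1T and HIST1H2BA, and 2 genes annotated as pseudogenes, HIST2H2BA and HIST2H2BC.

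The cells were U-937, a human acute myeloid leukemia line, for which the labels give the genotype KMT2A-MLLT10 fusion in every library. A Cas9 line grown from 1 clone received by lentivirus either sgMETTL1.3, a guide RNA against METTL1, or sgNS, the control guide, with 3 libraries per guide. METTL1 methylates a guanosine of tRNA at N7 together with WDR4, and the comparison asks how gene expression differs after its targeting. Both groups were selected with 10 µg/ml blasticidin and 200 µg/ml hygromycin B and harvested about 8 to 10 days after transduction. Values are TPM, a level per length of transcript, rescaled in each library to give the 92 ERCC spike-in RNAs 1 common sum. These are called values on the spike-in scale below. The same values rescaled to 1 common sum of all rows without spike-ins are called TPM.

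Replication-dependent histone genes are transcribed in S phase from clusters that lack introns in most members. Their mRNAs normally end just after a conserved stem-loop and carry no poly(A) tail. The stem-loop is bound by SLBP, and the U7 snRNP with a cleavage complex cuts the transcript after it. The same stem-loop serves translation and the rapid decay of the mRNA when DNA synthesis stops. Some of these genes also give polyadenylated transcripts that run past the stem-loop to an AATAAA signal, and such transcripts are known from differentiated and resting cells. The libraries were made from poly(A)-enriched RNA. The values therefore hold the polyadenylated share of each gene's RNA and any tail-less RNA carried over, and the stem-loop-ended mRNA as such was not measured.

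In the transcripts of GENCODE release 29 (GRCh38), 33 of the 72 genes hold the stem-loop, searched on the transcript strand as GGNNCTTNTNAGNGCC. Another 33 genes are annotated with the coding sequence without a UTR, so a stem-loop after it could not be found in them. The most frequent form, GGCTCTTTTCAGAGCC, was found in 17 genes, all of type H2A, H2B or H3. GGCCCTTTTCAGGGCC was found in 5, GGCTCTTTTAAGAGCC in 5 and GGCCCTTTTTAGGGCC in 3. The windows below are of genes whose level differed between the groups. The first 4 were higher in sgMETTL1.3 libraries and the last 4 lower, with the 2 arms of the stem in capitals and the loop and the 5 bases on either side in lower case.
HIST2H2BE: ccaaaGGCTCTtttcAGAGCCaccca
HIST3H2A: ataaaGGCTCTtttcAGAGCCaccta
HIST1H2AC: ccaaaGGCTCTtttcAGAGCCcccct
HIST1H2BN: acaacGGCTCTtttcAGAGCCaccta
HIST1H2BH: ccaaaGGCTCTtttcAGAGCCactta
HIST1H2BF: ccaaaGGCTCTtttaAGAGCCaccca
HIST1H4E: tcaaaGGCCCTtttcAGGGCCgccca
HIST1H4I: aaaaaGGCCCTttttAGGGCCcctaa
HIST2H2BE, HIST3H2A, HIST1H2AC and HIST1H2BN, all higher, share the stem GGCTCT and the loop tttc with HIST1H2BH, which was lower. The annotated transcripts run on past the stem-loop for 1729 bases in HIST2H2BE, up to 1128 in HIST1H2AC, 390 in HIST3H2A and, in the transcripts of HIST1H2BN that hold it, 5 or 377. They run on for 1640 bases in HIST1H2BH, 1022 in HIST1H4E, 732 in HIST1H2BF and 212 in HIST1H4I. A stem-loop, and an annotated run past it, were thus found among genes that moved either way.

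METTL1 itself had values of 8.28, 5.94 and 7.42 in sgMETTL1.3 libraries and 19.7, 22.0 and 20.3 in sgNS libraries, with no overlap (log2 fold change -1.41 ± 0.13 (SE), adjusted p = 2.41e-06 by limma). Across all 12449 tested genes the median log2 fold change was -0.32 on the spike-in scale and 0.01 as TPM, so a gene that kept its share of the RNA sits near -0.32 on the spike-in scale, and less far from 0 where its values are low, as in most histone genes. Fewer cells of a type and less RNA per cell cannot be told apart in bulk samples. Replicate 1 of sgMETTL1.3 differed from replicates 2 and 3 by a trend: its deviations from them rose with the GC content of the gene (Spearman's rho across genes of 0.837, a description). The tested histone genes had a median GC content of 57.5%, against 50% for all tested genes, and 26 of them (57.8%) had their highest sgMETTL1.3 value in replicate 1, against 48.8% of all tested genes. Counts without that library are therefore given beside the main ones. Of 10 myeloid markers, MPO was under 1 everywhere and the summed level ran from 662 to 955 in sgMETTL1.3 and from 1564 to 1684 in sgNS libraries. Of 10 markers of T, B, erythroid, epithelial, endothelial and fibroblast cells, those listed at 0 included CD3D, MS4A1, HBB and KRT18, and the summed level, mostly PECAM1, ran from 35.7 to 39.8 in sgMETTL1.3 and from 46.2 to 50.04 in sgNS libraries. COL1A1, a collagen gene of that list, was low and went the other way, with 2.19 ± 0.567 in sgMETTL1.3 and 1.06 ± 0.0519 in sgNS libraries (0.62, limma adjusted p = 0.0039, and 0.83 as TPM), and its part in the results was not tested.

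Of the 72 genes, 8 were listed at 0 in all 6 libraries, among them HIST1H2AA, HIST1H2BA and HIST4H4, and 20 stayed under 1 in every library, the 8 included. The filter of the fit, 3 or more of the 6 libraries at 1 or above, was passed by 45. Of the 27 others, 7 reached 1 in some library, with HIST1H1D highest at 2.62 in sgNS replicate 1. Only 13 genes averaged at least 5 and 6 at least 10. HIST1H2BK alone held 27.5% of the summed histone level in sgMETTL1.3 and 29.9% in sgNS libraries. The group is thus a low one, carried by few genes. Of the tested genes, 3 passed the filter through sgNS libraries alone, HIST1H1B, HIST1H2BF and HIST1H3C, so that a lower value in sgMETTL1.3 was built into their being tested. The filter also favoured the direction of 3 more called genes. HIST1H2BB reached 1 in every sgMETTL1.3 library but only in replicate 1 of sgNS. HIST1H4I and HIST1H2AH reached 1 in every sgNS library but only in sgMETTL1.3 replicate 1 and replicate 2, respectively.

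On the spike-in scale 17 of the 45 tested histone genes fell in sgMETTL1.3 libraries (37.8%), where 49.3% of all tested genes did. Another 6 rose (13.3%), where 6.4% of all genes did, and 22 did not pass the test (limma on log2(value + 1), adjusted p of 0.05 over all genes). Here and in the counts below, identical rows are counted separately. HIST2H4A and HIST2H4B, 1 measurement, are 2 of the 17, and the identical rows HIST2H2AA3 with HIST2H2AA4 and HIST2H3A with HIST2H3C are among the 22. The members' median log2 fold change was -0.46, beside -0.32 for all genes. As TPM, 7 of 44 tested members were lower (15.9%, against 25.3% of all genes), 9 were higher (20.5%, against 24.8%) and 28 did not pass, with a median of -0.13 beside 0.01. The share of lower genes was thus under that of all genes on both scales with all 6 libraries, but not in every alternative. Without sgMETTL1.3 replicate 1, 26 of 43 tested members were lower (60.5%, against 61.4% of all genes), and as TPM without it 10 of 40 were (25%, against 34.3%). With a correction for GC content 29 of 45 were lower (64.4%, against 60.3%), and as TPM with it 15 of 44 were lower (34.1%, against 33.6%) and 8 higher (18.2%, against 31.3%). On the spike-in scale the members' median log2 fold change was -0.50 without sgMETTL1.3 replicate 1, beside -0.37 for all genes. With the GC correction it was -0.53, beside -0.33. On both scales 6 genes were lower and 6 higher, and no gene was lower on one scale and higher on the other. The 2 scales rescale the same values, so they are not independent. The count on both scales was not made for all genes, so nothing is read from it. Of the 23 called genes, 11 lost their call when some single library was left out. HIST1H1B and HIST1H2BF, not among the 11, were not tested when an sgNS library was left out. The count of lower members was 10 without sgMETTL1.3 replicate 2 (44.5% of all genes), 10 without sgNS replicate 1 (45.7%) and 10 without sgNS replicate 2 (39.7%). It was 7 with median-of-ratios rescaling (26.9% of all genes), 9 with quantile normalization (26%), 11 of 64 with no filter (30%) and 4 of 13 among genes averaging at least 5 (55.4%), where 3 rose (5.02%). All sgMETTL1.3 values lay below all sgNS values in 14 tested members (31.1%, against 53.4% of all genes), and above them in 6 (13.3%, against 8.66%).

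**Figure D1:**
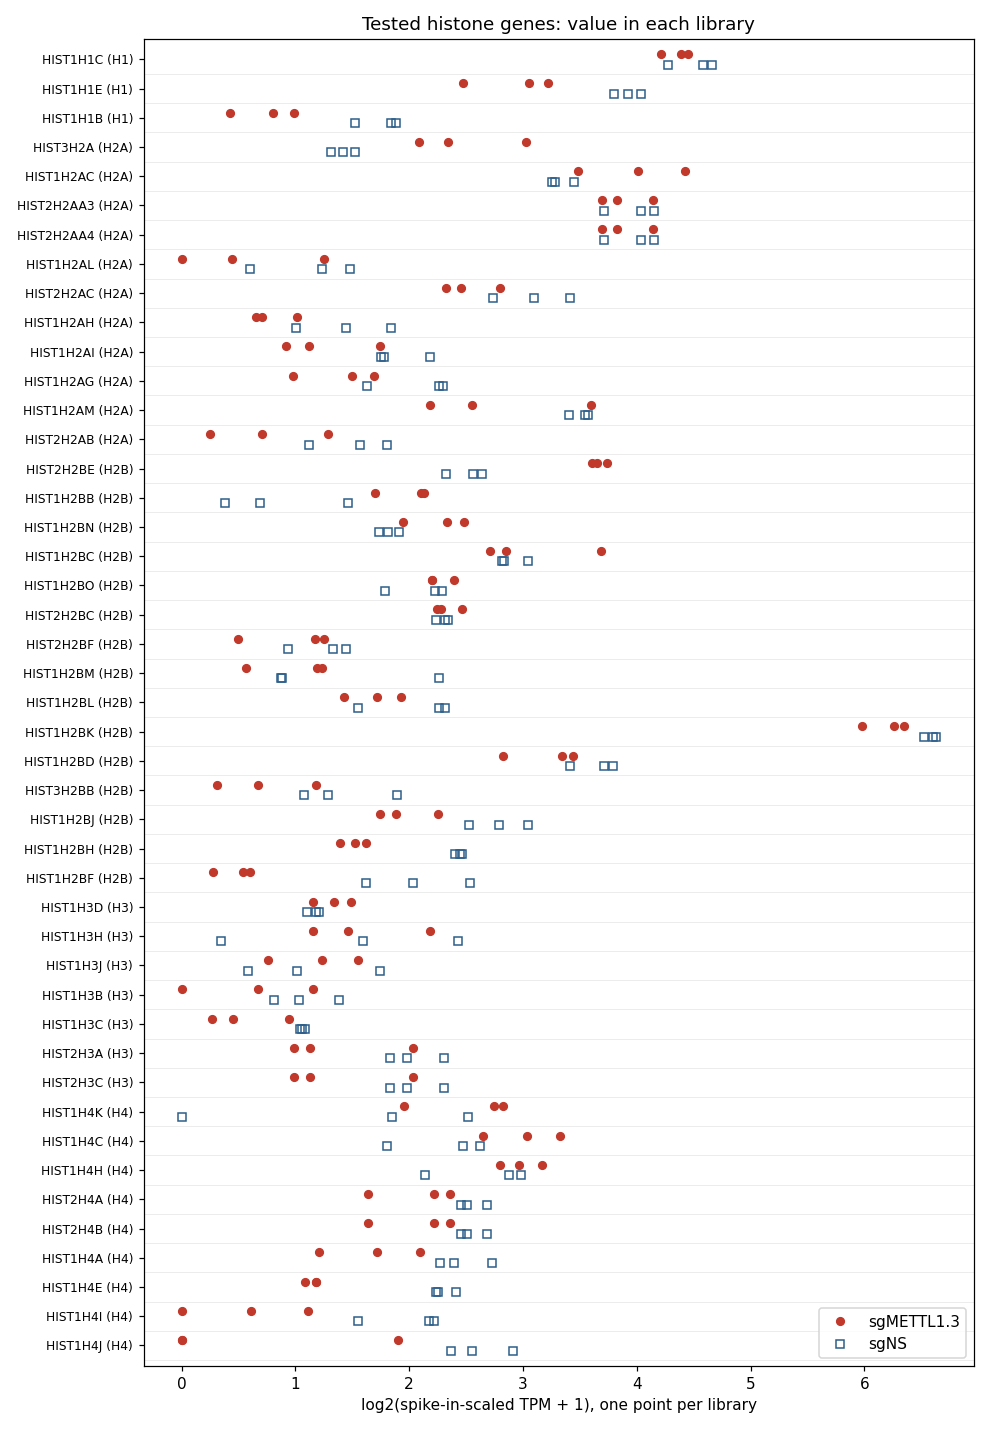
Values of the 45 tested histone genes, 1 row per gene ordered by histone type, on the log2(spike-in-scaled TPM + 1) scale; filled circles are the 3 sgMETTL1.3 libraries and open squares the 3 sgNS libraries. HIST1H2BK lies far above the other genes, HIST2H2BE has all sgMETTL1.3 circles to the right of the sgNS squares, and HIST1H4E and HIST1H2BH have them to the left.

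**Figure D2:**
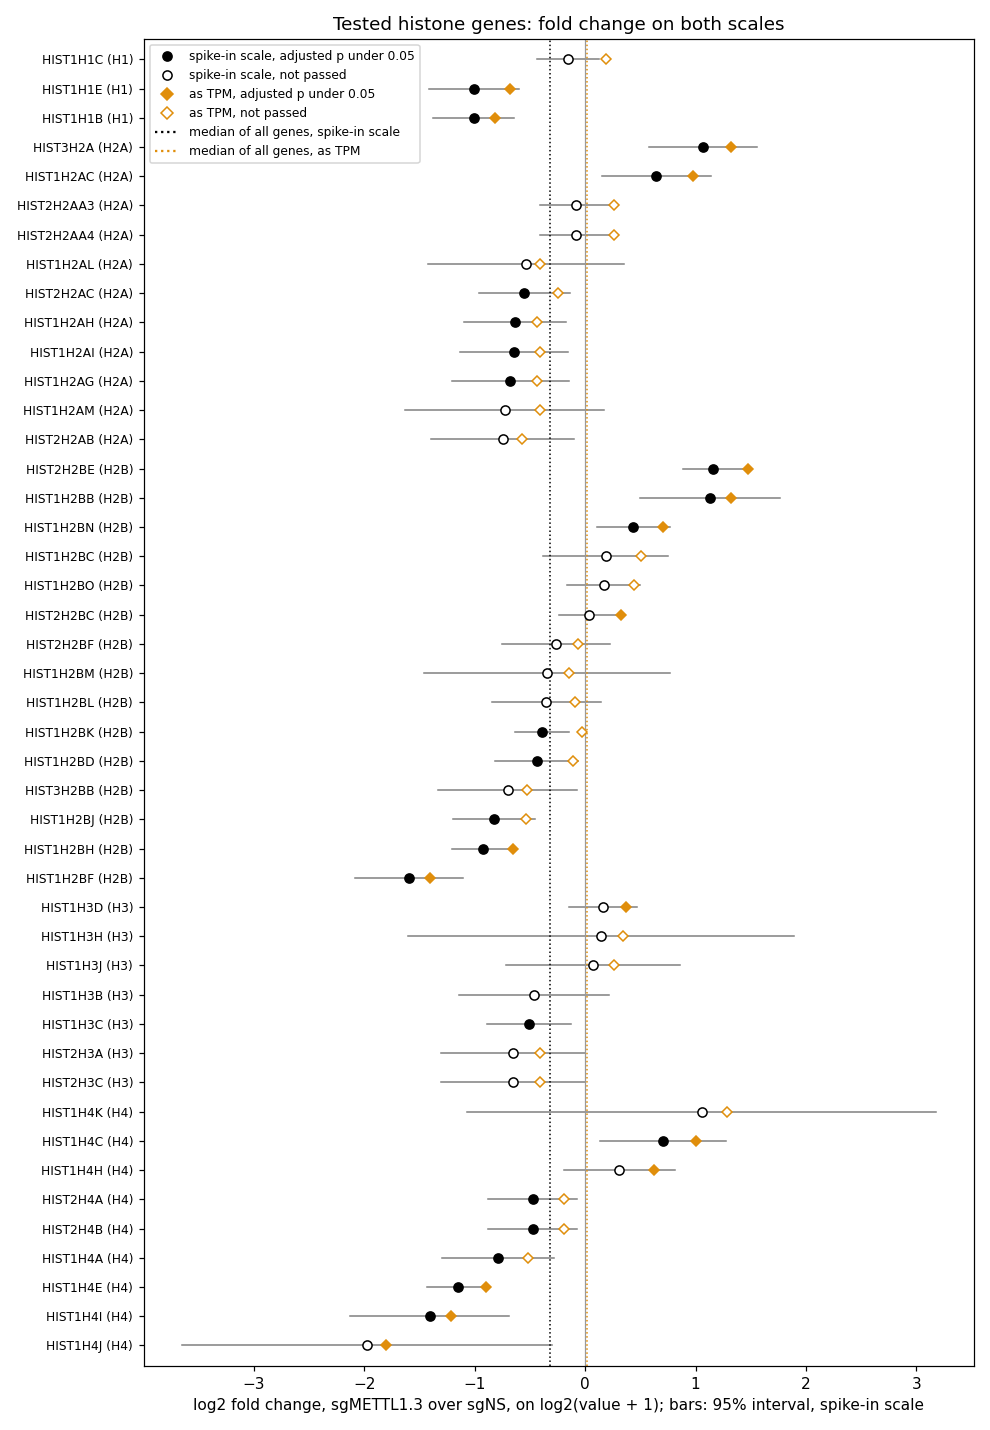
Log2 fold changes, sgMETTL1.3 over sgNS, of the tested histone genes by type, as circles on the spike-in scale with 95% intervals as bars and as diamonds for TPM, filled for a limma adjusted p under 0.05. Dotted lines mark the medians of all genes. The called genes run from -1.59 for HIST1H2BF to 1.16 for HIST2H2BE, and calls in both directions occur within H2A, H2B and H4.

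Summed over all 72 genes, the level was 306, 228 and 257 in sgMETTL1.3 libraries and 299, 331 and 322 in sgNS libraries on the spike-in scale. Replicate 1 of sgMETTL1.3 lay within the sgNS range, and replicates 2 and 3 lay below it. The means were 264 ± 39.4 in sgMETTL1.3 and 317 ± 16.4 in sgNS libraries (SD, n = 3 each), a log2 ratio of -0.27. As TPM the means were 293 ± 14.8 in sgMETTL1.3 and 276 ± 2.25 in sgNS libraries, a log2 ratio of 0.09. The sums are a description and carry no test.

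By type, the linker histone sum was 27.7 ± 3.57 in sgMETTL1.3 and 40.4 ± 2.41 in sgNS libraries on the spike-in scale (log2 ratio -0.54). H2A summed to 66.3 ± 17.9 in sgMETTL1.3 and 71.7 ± 3.43 in sgNS libraries (log2 ratio -0.11). H2B summed to 126 ± 13.6 in sgMETTL1.3 and 151 ± 6.88 in sgNS libraries (log2 ratio -0.26). H3 summed to 12.01 ± 4.23 in sgMETTL1.3 and 15.02 ± 1.94 in sgNS libraries (log2 ratio -0.32). H4 summed to 32.1 ± 5.45 in sgMETTL1.3 and 39.5 ± 2.85 in sgNS libraries (log2 ratio -0.30). The libraries of the 2 groups did not overlap for H1 and H2B and overlapped for H2A, H3 and H4. Leaving out each library in turn gave log2 ratios of -0.63 to -0.45 for H1, -0.35 to 0.02 for H2A, -0.32 to -0.18 for H2B, -0.65 to -0.16 for H3 and -0.41 to -0.17 for H4, so that H2A changed sign. H2B, mostly HIST1H2BK, was the most abundant type and H3 the least. H2A sums of 86.7, 53.2 and 58.97 in sgMETTL1.3 libraries enclosed the sgNS sums of 67.7, 73.8 and 73.5. As TPM the log2 ratio was -0.18 for H1, 0.23 for H2A, 0.09 for H2B, 0.02 for H3 and 0.05 for H4. As TPM every H2B sum of sgMETTL1.3 libraries, 136 to 145, was above every sgNS sum, 128 to 133, while the H1 sums overlapped. As TPM without sgMETTL1.3 replicate 1 the log2 ratio was -0.18 for H1, 0.08 for H2A, 0.11 for H2B, -0.20 for H3 and 0.02 for H4.

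**Figure D3:**
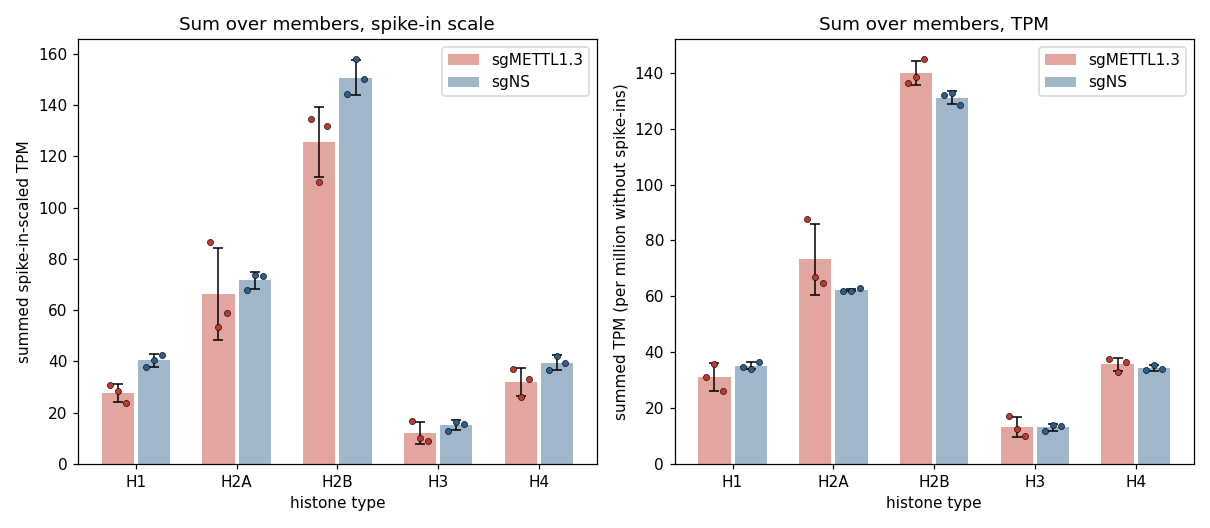
Summed level of all histone genes of each type in each library, on the spike-in scale and as TPM, with sgMETTL1.3 left of sgNS, a point per library, bars for the mean and error bars for its SD. H1 sums were lower in every sgMETTL1.3 library on the spike-in scale, while the H2A sum of sgMETTL1.3 replicate 1, 86.7, exceeded every sgNS sum.

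Linker histones bind the DNA between nucleosomes. HIST1H1C and HIST1H1E were the abundant members of the 6, HIST1H1B was low, and HIST1H1A, HIST1H1D and HIST1H1T did not enter the test. HIST1H1E, at chr6:26156354-26157107 (plus strand), had values of 8.31, 7.305 and 4.54 in sgMETTL1.3 libraries and 14.2, 12.9 and 15.5 in sgNS libraries. All sgMETTL1.3 values were below all sgNS values. Its means were 6.72 ± 1.96 in sgMETTL1.3 and 14.2 ± 1.28 in sgNS libraries (SD, n = 3 each), a log2 fold change of -1.01 ± 0.18 (SE; adjusted p = 0.000983 by limma), and the change was -0.68 as TPM (adjusted p = 0.0274). As TPM without sgMETTL1.3 replicate 1 it was -0.77 and no longer passed (adjusted p = 0.0589). HIST1H1B, at chr6:27866849-27867529 (minus strand), fell with 0.984, 0.341 and 0.75 in sgMETTL1.3 libraries and 2.69, 2.59 and 1.88 in sgNS libraries, a log2 fold change of -1.01 ± 0.17 (SE; adjusted p = 0.000245 by limma) and -0.82 as TPM (adjusted p = 0.00562). HIST1H1B passed the filter through sgNS libraries alone, so a fall was built into its being tested. HIST1H1C, at chr6:26055787-26056428 (minus strand), had 20.9, 19.98 and 17.5 in sgMETTL1.3 and 18.4, 24.3 and 23.01 in sgNS libraries. Its groups overlapped and it did not pass, with a log2 fold change of -0.16 ± 0.13 (SE; adjusted p = 0.319 by limma) and a 95% interval from -0.43 to 0.12. None of these 3 genes shares a run of 50 bases with another gene.

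H2A and H2B form the dimers on the outer faces of the nucleosome. Of 11 tested H2A genes 4 fell, 2 rose and 5 did not pass, and of 15 tested H2B genes 5 fell, 3 rose and 7 did not pass. As TPM no H2A gene was lower and 2 were higher, while 2 H2B genes were lower and 4 higher. Among all tested genes 49.3% fell and 6.4% rose, and as TPM 25.3% were lower and 24.8% higher.

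HIST2H2BE, an H2B gene at chr1:149884459-149886652 (minus strand) with a long annotated transcript, had the highest log2 fold change of the histone genes called. That order holds on the log2(value + 1) scale, and with a pseudocount of 0.1 HIST1H2BB (1.898) and HIST3H2A (1.40) exceeded HIST2H2BE (1.302). It had values of 12.3, 11.2 and 11.6 in sgMETTL1.3 libraries and 3.997, 4.91 and 5.22 in sgNS libraries. The gap between the groups was wider than the range within either of them. The means were 11.7 ± 0.58 in sgMETTL1.3 and 4.71 ± 0.634 in sgNS libraries (SD, n = 3 each), a log2 fold change of 1.16 ± 0.13 (SE; adjusted p = 8.27e-06 by limma) on the spike-in scale and 1.47 as TPM (adjusted p = 8.26e-05). Its call held in all 18 alternatives, with log2 fold changes between 0.78 and 1.503. HIST3H2A, an H2A gene at chr1:228456979-228457873 (minus strand), had 7.13, 4.08 and 3.26 in sgMETTL1.3 and 1.87, 1.48 and 1.68 in sgNS libraries. Every sgMETTL1.3 value was above every sgNS value, with replicate 1 highest. Its log2 fold change of 1.07 ± 0.22 (SE; adjusted p = 0.00247 by limma) became 0.80 without that library, and it was 1.32 as TPM (adjusted p = 0.00213).

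HIST1H2BB, an H2B gene at chr6:26043277-26043657 (minus strand), had 3.38, 2.24 and 3.29 in sgMETTL1.3 libraries and 1.76, 0.614 and 0.302 in sgNS libraries, without overlap. It rose with a log2 fold change of 1.13 ± 0.27 (SE; adjusted p = 0.00845 by limma), and was 1.32 as TPM (adjusted p = 0.00528). Of its sgNS values only that of replicate 1 reached 1, so the filter favoured a rise. HIST1H2AC, an H2A gene at chr6:26124145-26139116 (plus strand) with spliced and polyadenylated transcripts, had 20.4, 10.2 and 15.2 in sgMETTL1.3 and 9.94, 8.57 and 8.72 in sgNS libraries. All sgMETTL1.3 values were higher, again with replicate 1 highest, and the smallest gap to sgNS was narrow. It rose with a log2 fold change of 0.64 ± 0.21 (SE; adjusted p = 0.0314 by limma), which was 0.42 without sgMETTL1.3 replicate 1, and it was 0.97 as TPM (adjusted p = 0.00328). The call was lost at 0.62 without sgMETTL1.3 replicate 3, 0.70 without sgNS replicate 1 and 0.61 without sgNS replicate 2. HIST1H2BN, an H2B gene at chr6:27837760-27865798 (plus strand), had 4.04, 4.58 and 2.86 in sgMETTL1.3 and 2.76, 2.32 and 2.52 in sgNS libraries, without overlap. It rose with a log2 fold change of 0.43 ± 0.15 (SE; adjusted p = 0.028 by limma) and was 0.71 as TPM (adjusted p = 0.0157), but did not pass at 0.32 without sgMETTL1.3 replicate 2 and 0.39 without sgNS replicate 2. The span of HIST1H2BN holds HIST1H2AL on the same strand and HIST1H2AK on the other, so reads from these genes cannot be told apart with certainty. Without a filter on low values HIST1H2AC and HIST1H2BN no longer passed, and HIST1H2AC did not pass with the GC correction (0.78, adjusted p = 0.0968).

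Among the H2B genes that fell, HIST1H2BF, at chr6:26199520-26200715 (plus strand), had 0.451, 0.208 and 0.513 in sgMETTL1.3 libraries and 2.07, 3.105 and 4.805 in sgNS libraries. It also passed the filter through sgNS libraries alone, with the fall built in, and had a log2 fold change of -1.59 ± 0.22 (SE; adjusted p = 0.000167 by limma) and -1.41 as TPM (adjusted p = 0.00167). HIST1H2BH, at chr6:26251651-26253710 (plus strand), had 1.62, 1.87 and 2.08 in sgMETTL1.3 libraries and 4.52, 4.44 and 4.29 in sgNS libraries. The groups were tight and far apart, giving a log2 fold change of -0.93 ± 0.13 (SE; adjusted p = 5.49e-05 by limma) and -0.65 as TPM (adjusted p = 0.00361). HIST1H2BK, the most abundant histone gene in the data, at chr6:27146418-27146798 (minus strand), had 80.4, 61.9 and 75.6 in sgMETTL1.3 libraries and 91.1, 97.8 and 96.1 in sgNS libraries, with no overlap. Its log2 fold change of -0.39 ± 0.11 (SE; adjusted p = 0.00965 by limma) lay near the median of all genes, and as TPM it was -0.03 and did not pass (adjusted p = 0.643). Its annotated transcript is the coding sequence alone, and 74.1% of its 50-base runs occur in other genes, HIST1H2BE, HIST1H2BJ, HIST1H2BN and HIST1H2BO among them, so its level is uncertain.

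HIST1H2BJ (-0.83, limma adjusted p = 0.00137) and HIST1H2BD (-0.44, 0.0483) also fell on the spike-in scale, with -0.53 and -0.11 as TPM, where neither passed. HIST1H2BD lost its call at -0.25 without sgMETTL1.3 replicate 2, -0.36 without sgNS replicate 2 and -0.40 without sgNS replicate 3. The 4 H2A genes that fell were HIST1H2AG (-0.68, adjusted p = 0.0334), HIST1H2AI (-0.65, 0.0299), HIST1H2AH (-0.64, 0.0231) and HIST2H2AC (-0.55, 0.0263). None of them passed as TPM, with log2 fold changes between -0.43 and -0.25, and each lost its call without some single library. HIST1H2AG was at -0.48 without sgMETTL1.3 replicate 2 and -0.56 without sgNS replicate 2. HIST1H2AI was at -0.58 without sgMETTL1.3 replicate 2 and -0.47 without sgMETTL1.3 replicate 3. HIST1H2AH was at -0.59 without sgMETTL1.3 replicate 3, -0.63 without sgNS replicate 1 and -0.43 without sgNS replicate 2. HIST1H2AI shares 62.3% of its 50-base runs with HIST1H2AJ.

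Of the H2A and H2B genes that did not pass, the identical rows HIST2H2AA3 and HIST2H2AA4 were the most abundant, with 16.6, 11.96 and 13.2 each in sgMETTL1.3 libraries and 12.1, 16.7 and 15.4 each in sgNS libraries. Their groups overlapped (log2 fold change -0.08), and the 2 genes share nearly all of their sequence and count as 1 measurement. HIST1H2AM had 11.1, 4.87 and 3.55 in sgMETTL1.3 and 10.9, 10.7 and 9.61 in sgNS libraries. Replicate 1 of sgMETTL1.3 was the highest of the 6 and the other two the lowest, and 86.3% of its 50-base runs lie in transcripts of HIST1H3J. Its log2 fold change was -0.73 (adjusted p = 0.143 by limma), and it passed at -1.14 without sgMETTL1.3 replicate 1 (adjusted p = 2.89e-18) and at -0.93 with the GC correction (adjusted p = 5.08e-10). The first of these p-values rests on 2 sgMETTL1.3 libraries, and both rest on variances that limma shares across genes. As TPM without that library HIST1H2AM was at -0.76 (limma adjusted p = 0.00519). HIST1H2BC had 6.19, 5.55 and 11.9 in sgMETTL1.3 and 6.02, 7.24 and 6.12 in sgNS libraries, with sgMETTL1.3 replicate 3 alone above the sgNS range. HIST2H2BC, annotated as a pseudogene, was at 4.04 ± 0.427 in sgMETTL1.3 and 3.91 ± 0.186 in sgNS libraries, near equal on the spike-in scale, and higher as TPM (0.32, adjusted p = 0.0208). The remaining tested genes of both types, HIST1H2AL, HIST2H2AB, HIST1H2BL, HIST1H2BM, HIST1H2BO, HIST2H2BF and HIST3H2BB, had log2 fold changes between -0.75 for HIST2H2AB and 0.17 for HIST1H2BO.

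H3 and H4 form the tetramer at the centre of the nucleosome. Of 14 H3 genes 7 were tested, all at low values, of which 1 fell and none rose. Of all tested genes 49.3% fell and 6.4% rose, and as TPM 25.3% were lower and 24.8% higher. HIST1H3C, the 1 that fell, had 0.205, 0.366 and 0.921 in sgMETTL1.3 libraries and 1.06, 1.12 and 1.09 in sgNS libraries. It passed the filter through its sgNS values alone, and these barely, so a fall was built into its being tested. It had a log2 fold change of -0.51 ± 0.17 (SE; adjusted p = 0.0243 by limma), it was not tested as TPM, and the call was lost at -0.46 without sgMETTL1.3 replicate 2. The identical rows HIST2H3A and HIST2H3C had 3.096, 1.18 and 0.987 each in sgMETTL1.3 and 2.94, 3.94 and 2.55 each in sgNS libraries. They did not pass (-0.65, adjusted p = 0.083), and they lie on the strand opposite to HIST2H4B and HIST2H4A, so that without a stated strand setting their reads cannot be told apart. HIST1H3D, HIST1H3H, HIST1H3J and HIST1H3B had log2 fold changes of 0.16, 0.14, 0.07 and -0.46, none past the threshold. HIST1H3D was higher as TPM (0.37, adjusted p = 0.0333), but all of its 50-base runs lie in another annotated gene.

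Of 9 tested H4 genes 5 fell, 1 rose and 3 did not pass, and as TPM 3 were lower and 2 higher. Among all tested genes 49.3% fell and 6.4% rose, and as TPM 25.3% were lower and 24.8% higher. HIST1H4E, at chr6:26204552-26206038 (plus strand), had 1.12, 1.27 and 1.27 in sgMETTL1.3 libraries and 3.72, 4.31 and 3.78 in sgNS libraries. The groups were tight and did not overlap, with means of 1.22 ± 0.0895 in sgMETTL1.3 and 3.93 ± 0.325 in sgNS libraries (SD, n = 3 each). The log2 fold change of -1.15 ± 0.13 (SE; adjusted p = 1.06e-05 by limma) remained past the threshold as TPM, at -0.90 (adjusted p = 0.000609). HIST1H4I, at chr6:27138588-27139881 (plus strand), had 1.16, 0.524 and 0 in sgMETTL1.3 and 1.93, 3.64 and 3.51 in sgNS libraries. Every sgMETTL1.3 value, a listed 0 among them, lay below every sgNS value. It fell with a log2 fold change of -1.41 ± 0.31 (SE; adjusted p = 0.006 by limma), was -1.21 as TPM (adjusted p = 0.0125), and lost its call with a pseudocount of 0.1 in place of 1. HIST1H4C, at chr6:26103876-26104310 (plus strand), had 9.01, 5.28 and 7.204 in sgMETTL1.3 libraries and 4.54, 5.15 and 2.49 in sgNS libraries. It rose with a narrow gap between the groups and a log2 fold change of 0.71 ± 0.25 (SE; adjusted p = 0.0403 by limma), was 1.00 as TPM (adjusted p = 0.00829), and did not pass at 0.69 without sgMETTL1.3 replicate 3 and 0.79 without sgNS replicate 1, nor without a filter on low values.

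HIST1H4A fell on the spike-in scale (-0.79, limma adjusted p = 0.0144), as did the identical rows HIST2H4A and HIST2H4B (-0.48, 0.0428), and none of them passed as TPM. The 2 identical rows are 1 measurement, counted above as 2 of the 5 H4 genes that fell. HIST2H4A was at -0.26 without sgMETTL1.3 replicate 2, -0.55 without sgMETTL1.3 replicate 3, -0.41 without sgNS replicate 1 and -0.52 without sgNS replicate 2, where it did not pass. HIST1H4J had 2.74, 0 and 0 in sgMETTL1.3 and 4.88, 6.54 and 4.17 in sgNS libraries, and HIST1H4K had 2.87, 5.72 and 6.08 in sgMETTL1.3 and 2.61, 0 and 4.71 in sgNS libraries. HIST1H4J had a log2 fold change of -1.98 and missed the threshold (adjusted p = 0.0531), and passed at -1.81 as TPM (adjusted p = 0.0215). HIST1H4K had 1.05 and did not pass. All 50-base runs of HIST1H4K occur in HIST1H4J, so the division of reads between them is uncertain. Added together they gave 5.61, 5.72 and 6.08 in sgMETTL1.3 libraries and 7.49, 6.54 and 8.87 in sgNS libraries. The opposite signs of the separate rows were thus absent from the sum, whose sgMETTL1.3 values all lay below the sgNS values (log2 ratio -0.40, no test). HIST1H4H, with 7.97, 5.95 and 6.796 in sgMETTL1.3 and 3.399, 6.36 and 6.89 in sgNS libraries, did not pass on the spike-in scale (0.31) and was higher as TPM (0.62, adjusted p = 0.0298).

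Many H2A and H2B genes lie head to head, with a promoter between them that serves both. Taking the closest annotated transcript starts, there were 14 head-to-head pairs of histone genes with starts at most 1000 bases apart, at distances of 124 to 357 bases. In 9 of them both genes were tested. The 1 pair of H3 and H2B, HIST1H3J with HIST1H2BO, rests on a spliced processed transcript of HIST1H3J that overlaps HIST1H2AM. A promoter shared by its coding transcript was not shown, and HIST1H2BO is also paired with HIST1H2AM. Both members fell in 2 pairs, HIST1H2BJ with HIST1H2AG and HIST1H2BK with HIST1H2AH. In 1 pair the calls went in opposite directions: HIST2H2BE rose (1.16) and HIST2H2AC fell (-0.55), with starts 323 bases apart. HIST2H2AC had 5.95, 4.49 and 3.996 in sgMETTL1.3 libraries and 7.53, 5.66 and 9.62 in sgNS libraries, which overlapped. Its annotated transcript is the coding sequence alone. Of its 50-base runs 30.5% occur in 3 other genes, HIST2H2AA3 and HIST2H2AA4 among them, so its level is uncertain. HIST2H2AC was -0.25 as TPM (adjusted p = 0.311), which did not pass, and its call on the spike-in scale was lost at -0.52 without sgMETTL1.3 replicate 2, -0.45 without sgMETTL1.3 replicate 3, -0.55 without sgNS replicate 1 and -0.39 without sgNS replicate 3. Its neighbour passed in all of these. HIST3H2A rose (1.07) beside HIST3H2BB, which had 1.26, 0.591 and 0.237 in sgMETTL1.3 and 2.72, 1.44 and 1.11 in sgNS libraries and did not pass (-0.70, adjusted p = 0.0584). HIST1H2AC rose beside HIST1H2BC (0.19, not passed). The sign of the log2 fold change was shared in 5 of the 9 pairs, HIST1H3J with HIST1H2BO among the 5. Of all tested genes 49.3% fell and 6.4% rose, with a median of -0.32, so genes that are not paired share signs too. No comparison with unpaired genes was made.

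**Figure D4:**
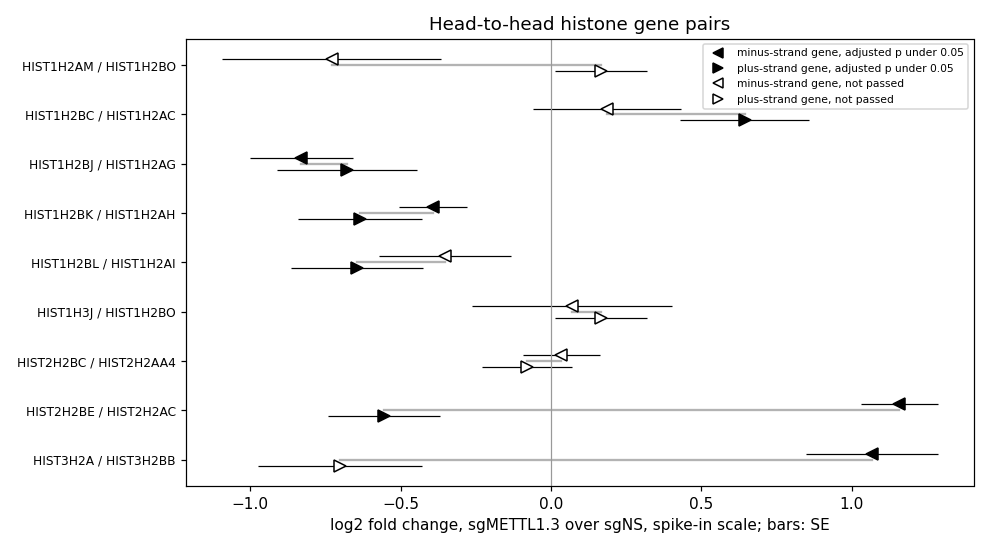
Log2 fold changes, sgMETTL1.3 over sgNS, of the 9 head-to-head pairs with both genes tested, with left-pointing triangles for the gene on the minus strand, right-pointing ones for the plus strand, filled for a limma adjusted p under 0.05, and standard errors as bars. The members of HIST2H2BE / HIST2H2AC and of HIST3H2A / HIST3H2BB lie on opposite sides of 0, and those of HIST1H2BJ / HIST1H2AG lie together.

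The promoters of 4 genes are printed below, from RefSeq on GRCh38.p14, from 250 bases before the annotated start to 50 after it. HIST2H2BE and HIST2H2AC are shown because 265 of their 300 bases are the same stretch read on opposite strands while their levels moved apart. HIST1H2BH is an H2B gene that fell, and HIST1H1E stands for the H1 promoters. Capitals mark TATAAA on the strand of the gene and CCAAT, the octamer ATTTGCAT and the H1 box AAACACA on either strand. The windows are, in turn, chr1:149886633-149886932, minus strand; chr1:149886668-149886967, plus strand; chr6:26251364-26251663, plus strand; and chr6:26156079-26156378, plus strand.
HIST2H2BE: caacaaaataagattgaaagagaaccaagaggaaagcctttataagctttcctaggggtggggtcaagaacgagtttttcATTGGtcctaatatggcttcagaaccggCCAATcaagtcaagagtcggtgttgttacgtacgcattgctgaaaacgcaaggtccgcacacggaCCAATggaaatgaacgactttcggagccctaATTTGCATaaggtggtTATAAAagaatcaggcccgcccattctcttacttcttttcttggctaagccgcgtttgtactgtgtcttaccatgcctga
HIST2H2AC: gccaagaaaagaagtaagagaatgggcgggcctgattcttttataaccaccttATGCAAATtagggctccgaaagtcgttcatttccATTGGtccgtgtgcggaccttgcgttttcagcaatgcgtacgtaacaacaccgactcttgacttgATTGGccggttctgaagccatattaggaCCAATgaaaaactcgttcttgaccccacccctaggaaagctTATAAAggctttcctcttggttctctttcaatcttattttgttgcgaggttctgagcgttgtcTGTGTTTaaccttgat
HIST1H2BH: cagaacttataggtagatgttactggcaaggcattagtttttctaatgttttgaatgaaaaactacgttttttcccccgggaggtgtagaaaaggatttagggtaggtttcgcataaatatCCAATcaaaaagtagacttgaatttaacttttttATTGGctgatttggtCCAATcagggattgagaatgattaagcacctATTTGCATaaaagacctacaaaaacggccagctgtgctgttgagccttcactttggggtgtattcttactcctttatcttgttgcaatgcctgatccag
HIST1H1E: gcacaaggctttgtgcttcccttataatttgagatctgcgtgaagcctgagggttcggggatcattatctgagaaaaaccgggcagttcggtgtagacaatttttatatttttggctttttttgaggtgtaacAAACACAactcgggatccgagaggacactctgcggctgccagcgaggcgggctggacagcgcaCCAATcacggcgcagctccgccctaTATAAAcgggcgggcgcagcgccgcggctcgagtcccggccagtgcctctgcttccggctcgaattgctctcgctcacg
In HIST2H2BE the TATAAA began 30 bases and the octamer 46 bases before the start, and CCAAT began at 170, 142 and 77. HIST1H2BH had the octamer at 49 and CCAAT at 129, 95 and 80, with no TATAAA in the window. HIST1H1E had AAACACA at 117, CCAAT at 54 and TATAAA at 29. The octamer is the binding motif of POU2F1, the H1 box that of linker histone promoters, and CCAAT that of NF-Y. No motif overlaps another in these 4 windows, and overlaps were not looked for elsewhere.

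Promoters were found for 61 of the 72 genes. TATAAA was in 57.4% of them, against 7.33% of all 35116 promoters in the table, and CCAAT in 83.6%, against 34.6%. The octamer was in 42.6%, against 1.77%, and AAACACA in 14.8%, against 5.64%. The motifs followed histone type: the octamer was in 11 of 14 H2A and 14 of 18 H2B promoters, in 1 of 10 H3 promoters and in no H1 or H4 promoter, AAACACA was in all 6 H1 promoters, and CCAAT was in all H1, H2A, H2B and H3 promoters and in 3 of 13 H4 promoters. Windows of head-to-head pairs share 253 to 293 of their 300 bases, so 1 octamer or CCAAT site can count for both genes. The H3 promoter with the octamer, of HIST1H3D, is the same window as that of HIST1H2AD. Of H2A and H2B genes with the octamer, 6 of 16 tested fell and 3 rose, and of those without it 2 of 6 fell and 2 rose. Of genes with TATAAA, 7 of 18 fell and 3 rose, and of those without it 7 of 18 fell and 2 rose. Among all tested genes 49.3% fell and 6.4% rose. These are counts of letters and of calls, and no test of a difference was made.

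Transcripts annotated as spliced, or as running more than 100 bases past the stem-loop, were found for 28 genes, of which 22 were tested, against 23 tested of the 44 others. Of the 22, 9 fell, 4 rose and 9 did not pass, and of the 23, 8 fell, 2 rose and 13 did not pass, with a median log2 fold change of -0.46 in both. Where such a transcript also ends with AATAAA in its last 50 bases, 7 of 16 tested genes fell and 3 rose. Among the others 10 of 29 fell and 3 rose, where 49.3% of all tested genes fell and 6.4% rose. For 33 of the 72 genes the annotation holds the coding sequence without a UTR, so reads outside it may not have been counted. A run past the stem-loop could not be seen in these, and many of them stand among the 44 others. HIST1H1C, HIST1H2BB and HIST1H2BK are among these coding-length genes. The annotation the authors used is not given in the sources used here.

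By position, the large cluster on chromosome 6 has 2 parts. Counts at each position stand beside 49.3% of all tested genes that fell and 6.4% that rose. At 25726132 to 26285638 (GRCh38), 34 genes were annotated and 15 tested, of which 7 fell and 3 rose. At 27125897 to 27893843, 21 genes were annotated and 17 tested, of which 7 fell and 1 rose. On chromosome 1, 11 genes between 121108210 and 149887916 were tested, of which 3 fell and HIST2H2BE rose. The small cluster at 228424845 to 228460470 had 2 tested genes, of which HIST3H2A rose.

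The genes that feed histone expression were read from lists. The counts of each list stand beside 49.3% of all tested genes that fell and 6.4% that rose on the spike-in scale, and 25.3% lower and 24.8% higher as TPM. Of 10 genes of histone transcription and cell-cycle input, all tested, 7 fell and none rose (median log2 fold change -0.56), and as TPM 3 were lower and 1 higher. NPAT, the coactivator of histone promoters, averaged 13.7 ± 1.72 in sgMETTL1.3 and 20.9 ± 1.19 in sgNS libraries (-0.58, limma adjusted p = 0.00123). It did not pass as TPM (-0.23, adjusted p = 0.161). CCNA2, CDK2, POU2F1 and CASP8AP2 had log2 fold changes of -0.79, -0.70, -0.62 and -0.62, and the first 3 were also lower as TPM. Of 20 S-phase genes 17 fell and none rose (median -0.86), with 16 lower and 1 higher as TPM. MCM6, of the replicative helicase, was at 217 ± 17.1 in sgMETTL1.3 and 635 ± 20.8 in sgNS libraries (-1.55), and GINS1 (-1.49), TYMS (-1.43) and RRM1 (-1.20) also fell. The median of the tested histone genes was -0.46, and the part of the S-phase genes' fall in it was not tested.

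Of 17 genes of histone mRNA 3′-end processing and export, 13 fell and none rose (median -0.56), and as TPM 10 were lower and 1 higher. SLBP, the stem-loop binding protein, averaged 86.7 ± 5.72 in sgMETTL1.3 and 130.5 ± 5.35 in sgNS libraries, without overlap (-0.59, limma adjusted p = 0.000228), and was -0.23 as TPM (adjusted p = 0.0305). CPSF3, the endonuclease that makes the cut, averaged 75.2 ± 8.48 in sgMETTL1.3 and 169 ± 5.99 in sgNS libraries (-1.17, adjusted p = 1.99e-06), and was -0.81 as TPM (adjusted p = 0.00134). CPSF2 (-0.97), CSTF2 (-0.74) and SNRPE (-0.89), an Sm protein, also fell on both scales. The U7 RNA gene RNU7-1 was listed at 0. Of 10 genes of histone mRNA decay 6 fell and none rose (median -0.39), with 2 lower and 1 higher as TPM, beside 49.3% and 25.3% lower among all genes. LSM1 (-0.70), EXOSC10 (-0.66), ERI1 (-0.55), the nuclease that trims the stem-loop end, and ZCCHC6 (-0.49) were the 4 of smallest p.

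RNAs that normally have no poly(A) tail were counted as a measure of tail-less RNA in the libraries. Of 21 tested, 7 rose, 2 fell and 12 did not pass (median 0.68), and as TPM 8 were higher and 2 lower. Their summed level ran from 921 to 1451 in sgMETTL1.3 libraries and from 597 to 705 in sgNS libraries, without overlap. RN7SK, which holds the elongation factor P-TEFb inactive, averaged 278 ± 61.6 in sgMETTL1.3 and 131 ± 13.3 in sgNS libraries (1.07, limma adjusted p = 0.000186), and RN7SL2 (1.18) and RPPH1 (1.10) rose likewise. RNU6ATAC, 1 of the 7, was listed at 0 in all sgNS libraries and passed the filter through sgMETTL1.3 libraries alone, so a rise was built into its being tested. SCARNA2, SCARNA7 and SNORD3A rose too, and TERC (-1.42) and SNORA73A (-1.21) fell. The histone genes that rose did so beside this change in some tail-less RNAs, and its part in their values was not tested. Neither can a shift between stem-loop-ended and polyadenylated histone mRNA be told apart from a change in the total, since poly(A) enrichment leaves one of the forms out. Rows of 18S and 28S rRNA took 4.67 to 6.17% of the total in sgMETTL1.3 and 5.53 to 5.96% in sgNS libraries.

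Replication-independent histone variants, whose mRNAs are polyadenylated, included more abundant RNAs. Of 9 tested 4 fell and none rose (median -0.10), and as TPM 2 were lower and 4 higher. H2AFZ averaged 686 ± 42.3 in sgMETTL1.3 and 954 ± 48.3 in sgNS libraries (-0.48, limma adjusted p = 0.000893), and H3F3B, one of the genes for H3.3, 214 ± 15.4 in sgMETTL1.3 and 356 ± 17.4 in sgNS libraries (-0.73, adjusted p = 3.7e-05). H2AFV (-0.62) and CENPA (-0.47), the centromeric H3, also fell. H1F0, a linker histone of resting cells, was at 189 ± 16.5 in sgMETTL1.3 and 181 ± 5.51 in sgNS libraries and did not pass (0.05), but was higher as TPM (0.41, adjusted p = 0.00082). H2AFX, whose gene gives both a stem-loop and a polyadenylated mRNA, was at 95.4 ± 38.4 in sgMETTL1.3 and 67.5 ± 4.27 in sgNS libraries. It did not pass on the spike-in scale (0.42) and was higher as TPM (0.78, adjusted p = 0.0117). Its sgMETTL1.3 values were 139, 67.3 and 79.8, with replicate 1 far above the other two, and its sgNS values were 63.6, 66.9 and 72.01. Without that replicate the log2 fold change was 0.12 on the spike-in scale and 0.55 as TPM, and with the GC correction 0.11 on the spike-in scale. H3F3A did not pass on either scale. Of 21 tested histone chaperones and deposition factors 16 fell and none rose (median -0.59), with 11 lower and 4 higher as TPM, and the 4 of smallest p were ANP32E (-1.46), SSRP1 of the FACT complex (-1.33), HAT1 (-1.12), which acetylates new H4, and CHAF1B (-1.02) of chromatin assembly factor CAF-1.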

How the data were processed

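Poly(A)-enriched RNA from 3 sgMETTL1.3 and 3 sgNS libraries of U-937 cells was sequenced by the authors, from 300 ng of total RNA with ERCC spike-ins, per the labels' protocols. The submitters' processing notes name cutadapt, STAR and RSEM with GRCh38 and hg38. No version, annotation or strand setting is given in the sources used here. The signal values deposited by the authors are TPM scaled by library to an equal sum of the 92 spike-in rows, as read from the values. How much spike-in was added, and at which step, is not stated, so nothing ties the scale to cell number. Depth is unknown, and no counting intervals can be given. The labels do not say whether replicates were separate cultures. The p-values then reflect only how far these libraries scatter, which may be technical.

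Rows at 1 or above in 3 or more of 6 libraries, spike-ins left out, were tested on log2(value + 1) in R 4.3.3 by limma (version 3.58.1) with trend, robust and no block, and Benjamini-Hochberg adjustment over all of these rows at 0.05. Fold changes are on that scale and understate changes of low genes. For TPM, each library was rescaled to 1 common sum of all rows without spike-ins. The rule for named genes took tested histone genes, METTL1, SLBP, NPAT, H2AFZ, H2AFX, H3F3A, H3F3B, H1F0 and the up to 4 genes of smallest p in each list. TERC, SCARNA2, SCARNA7, SNORD3A, SNORA73A, RNU7-1 and the markers were named after their values were seen. The members and lists were chosen with earlier results of these data known. Coordinates, stem-loops and shared 50-base runs came from GENCODE release 29 (GRCh38) and promoters from RefSeq (GRCh38.p14). The fit was checked on simulated data. Alternatives were other scalings, pseudocounts and filters, a fit without trend, a replicate block, a GC correction and leaving out each library.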

Additional observations from a re-analysis of the deposited data

How the results depend on the processing

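The counts of histone genes that fell depended on the scaling and on single libraries. Against 17 lower histone genes (and 6142 lower and 797 higher genes in all) on the spike-in scale, values as TPM gave 7 (3147 and 3093), median-of-ratios rescaling 7 (3344 and 3142) and quantile normalization 9 (3231 and 2978). No filter gave 11 of 64, a mean of at least 5 gave 4 lower and 3 higher of 13 (510 higher in all), and the GC correction gave 29. The GC correction as TPM gave 15 lower and 8 higher histone genes of 44, and 3944 lower and 3674 higher genes in all. TPM without sgMETTL1.3 replicate 1 gave 10 lower histone genes and 4445 higher genes in all. Leaving out each library in turn gave 10 to 26 lower histone genes. The log2 ratio of the sums was -0.18 for H1, 0.23 for H2A, 0.093 for H2B and 0.055 for H4 as TPM, and -0.17, 0.24, 0.095 and 0.058 with median-of-ratios rescaling. As TPM without sgMETTL1.3 replicate 1 it was -0.18 for H1, 0.081 for H2A, 0.11 for H2B, -0.202 for H3 and 0.019 for H4. On the spike-in scale leaving out each library gave -0.353 to 0.024 for H2A. HIST1H2BK changed sign with quantile normalization, to 0.028 (adjusted p = 0.706). Of 23 called histone genes 7 passed in every alternative that tested them: HIST1H1B, HIST1H2BB, HIST1H2BF, HIST1H2BH, HIST1H4E, HIST2H2BE and HIST3H2A. Of these, HIST1H1B and HIST1H2BF entered the test through sgNS libraries alone. They were tested in 14 of the 18 alternatives, and not where an sgNS library was left out or a mean of at least 5 was asked for. HIST1H2BB passed the filter mostly through sgMETTL1.3 libraries. The cause of the other changes was not tested. Whether replicate numbers pair the libraries is not known. Deviations of same-numbered libraries correlated at -0.014, 0.0046 and -0.039, and those of differently numbered ones at -0.013 to 0.027. With both so small, these correlations cannot decide it. A fit with the replicate block called 25 histone genes lower and 6 higher, and 5861 and 814 genes in all. Depth is unknown, and most histone genes lie under 5, where low values limit what can be called.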
